A study of Homo sapiens with 44 samples.

Results

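The HOX genes were described across the A549 libraries, as the 39 protein-coding genes of GENCODE release 29 whose symbols are HOX followed by a cluster letter from A to D and a number, of 58721 genes counted in each table. The rule used names only and no measured value. A549 is an established human lung adenocarcinoma line. The libraries came from its parental form (WT) and from 3 derived lines, het1, het2 and homo, in which the TAZ2 domain of the acetyltransferase p300 (gene EP300) is truncated, with het and homo in the names as the labels give them. The het genotype was represented by 2 lines and homo by 1, so an effect of the truncation and a difference between derived lines cannot be told apart. Polyadenylated RNA was sequenced from xenograft tumours at day 30 (het1, het2, homo and WT, 4 libraries each) and from cultured cells (the same lines, 3 libraries each). A second set of tumours, from het1 and WT, had received SAHA (vorinostat, an inhibitor of histone deacetylases) or its vehicle DMSO for 4 weeks, with 4 libraries per group. All 44 libraries carry an A549 background, and nothing in the labels ties the libraries of a group to separate animals or cultures. The p-values therefore describe the spread between libraries, which may be technical.

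HOX proteins are homeodomain transcription factors that give body segments and organs their regional identity. Their genes lie in clusters in which the order along the chromosome follows the order of expression from head to tail, from paralog group 1 at the 3′ end to group 13 at the 5′ end. They bind DNA together with TALE homeodomain cofactors of the PBX, MEIS and PKNOX families. Polycomb complexes keep the clusters silent, MLL (trithorax) complexes keep them active, and retinoic acid induces the 3′ genes during development. In the developing lung, 3′ and middle genes of the HOXA and HOXB clusters are the main ones expressed, and in the mouse Hoxa5 is required for normal lung formation.

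On GRCh38 the HOXA cluster (11 genes) lies on the minus strand of chromosome 7, HOXB (10 genes) on the minus strand at chr17:48528526-48729178, HOXC (9 genes) on the plus strand at chr12:53938765-54056030 and HOXD (9 genes) on the plus strand at chr2:176092891-176190907. Genes within a cluster overlap each other and several antisense RNAs. Exons shared with another gene on either strand made up 80.5% of HOXD4, 74.1% of HOXD3, 62.5% of HOXA7, 59.9% of HOXC5, 58.1% of HOXD1, 47.3% of HOXA4, 40.1% of HOXA6 and 32.9% of HOXB6. Counting at these genes is uncertain, since no source used here states the strand setting.

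Depth was high throughout, at 63243289 to 99593214 counts in day 30 tumours, 61168373 to 93444327 in cultured cells and 61937591 to 82475298 in treated tumours, so that 3 counts in a library corresponded to 0.0299 to 0.0488 CPM. CPM is the count divided by the TMM-scaled library size and multiplied by 1000000. EP300 averaged 185 ± 2.87 CPM in het1, 153 ± 4.05 in het2 and 190.4 ± 2.37 in homo cells, against 115 ± 3.84 in WT cells (SD, n = 3 each). In day 30 tumours it averaged 102 ± 7.06 CPM in het1, 105 ± 19.8 in het2 and 140.1 ± 3.21 in homo, against 88.7 ± 3.90 in WT (SD, n = 4 each). The truncation itself cannot be read from gene-level counts. The epithelial keratin KRT8 averaged 1030.5 ± 27.0 CPM in het1, 1025 ± 26.7 in het2 and 407 ± 7.23 in homo cultures, against 3085 ± 84.7 in WT cultures, whereas the lung lineage factor NKX2-1 was near 0. Both come from a list of 13 lung and epithelial markers, which did not move as 1. Of the 9 tested in culture, 3 were higher and 6 lower than WT in het1, 2 and 7 in het2, and 3 and 6 in homo (adjusted p under 0.05). A xenograft tumour can hold host tissue. The summed level of 11 fibroblast markers ran from 109.6 to 501.7 CPM over day 30 tumours, from 51.3 to 74.2 CPM in the edited cultures and from 9.93 to 11.1 CPM in WT cultures. Sums of the other host markers are given beside the tumour comparisons. No source used here states how host reads were treated. In bulk RNA, fewer cells of a type and less RNA per cell cannot be told apart.

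Of the 39 members, 20 averaged at least 1 CPM in every group and 31 did so in at least 1 group, whereas 8 stayed below 1 CPM in all 12 groups. HOXB1 had 0 counts in all 44 libraries. HOXC12 had 102 counts in 27 libraries and HOXD12 had 31 counts in 19 libraries. These 3 genes were too low to test in any table, and HOXD1 was too low in culture, which left 36 members tested in tumours and 35 in cells. Per kilobase of exon, HOXB7 was the most abundant member in WT cultures, at 22.0 CPM per kb, followed by HOXB8 at 9.44 and HOXC13 at 5.37 CPM per kb. HOXB7 also led in WT day 30 tumours, at 28.3 CPM per kb, with HOXB8 next at 5.50. In het1 cultures HOXB7, HOXB8 and HOXA5 lay close together at 18.6, 17.9 and 17.2 CPM per kb. HOXA5 led in het2 cultures, at 15.7 CPM per kb before HOXB7 at 10.4, and in homo cultures, at 28.1 CPM per kb before HOXA3 at 13.5 and HOXB7 at 12.4. Summed over the cluster, HOXA reached 129.4 ± 3.91 CPM in het1, 110.7 ± 1.63 in het2 and 158.6 ± 3.14 in homo cultures, against 39.9 ± 1.11 in WT cultures (SD, n = 3 each). The same sum in day 30 tumours was 59.6 ± 2.20 CPM in het1, 50.3 ± 1.92 in het2 and 55.6 ± 7.35 in homo, against 60.0 ± 3.46 in WT (SD, n = 4 each). Each edited culture was above every WT culture by this sum, and each het2 tumour was below every WT tumour. The HOXB sum in the same tumours was 185.2 ± 10.5 CPM in het1, 148.6 ± 10.5 in het2 and 162.7 ± 5.62 in homo, against 112.9 ± 6.86 in WT, without overlap between edited and WT tumours. The HOXD sum was 22.1 ± 1.46 CPM in het1, 15.3 ± 1.00 in het2 and 27.2 ± 4.27 in homo, against 11.9 ± 0.80 in WT, also without overlap. For HOXC it was 75.8 ± 1.00 CPM in het1, 36.9 ± 1.21 in het2 and 48.2 ± 0.38 in homo, against 46.1 ± 2.80 in WT.

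**Figure D1:**
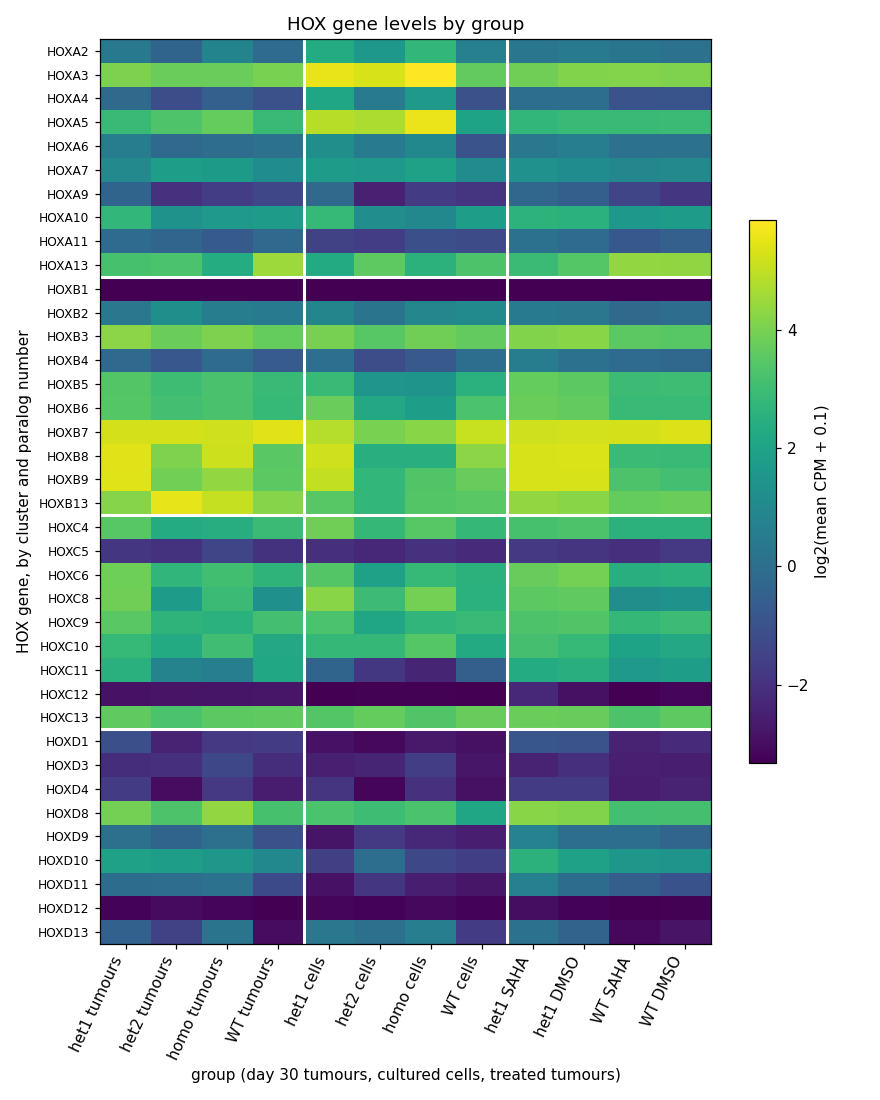
Level of HOX members as log2(mean CPM + 0.1) (rows, by paralog number within the 4 clusters) in the 12 groups (columns). HOXA2 to HOXA5 are higher in the edited cultures than in any other column, and HOXB1, HOXC12 and HOXD12 are at or near the bottom of the scale in every column.

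Upstream sequence is shown for 4 members whose levels recur below, HOXA2 and HOXA4 from the 3′ side of HOXA, HOXA13 from its 5′ end, and HOXD8. The windows are from RefSeq (GRCh38.p14) and end at the base before the GENCODE start of their own gene. They are written 5′ to 3′ on the gene's strand, with capitals marking motif matches on either strand. Overlap with exons of other genes was not checked, and the HOXA4 window lies within the span of HOXA3 (chr7:27106184-27152581). They lie at chr7:27102812-27102933 (HOXA2, minus), chr7:27130800-27131007 (HOXA4, minus), chr7:27200107-27200341 (HOXA13, minus) and chr2:176129455-176129693 (HOXD8, plus).
HOXA2: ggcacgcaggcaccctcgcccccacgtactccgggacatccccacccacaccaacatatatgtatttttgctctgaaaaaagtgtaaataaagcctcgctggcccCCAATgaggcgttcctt
HOXA4: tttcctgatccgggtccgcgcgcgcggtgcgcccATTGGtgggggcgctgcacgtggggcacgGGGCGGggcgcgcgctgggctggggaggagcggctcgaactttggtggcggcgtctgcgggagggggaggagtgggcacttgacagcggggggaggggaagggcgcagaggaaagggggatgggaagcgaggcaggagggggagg
HOXA13: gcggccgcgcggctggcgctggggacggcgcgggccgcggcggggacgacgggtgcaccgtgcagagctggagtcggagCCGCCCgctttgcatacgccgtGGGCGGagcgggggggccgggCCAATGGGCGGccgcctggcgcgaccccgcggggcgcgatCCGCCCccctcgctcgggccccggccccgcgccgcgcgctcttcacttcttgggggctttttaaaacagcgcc
HOXD8: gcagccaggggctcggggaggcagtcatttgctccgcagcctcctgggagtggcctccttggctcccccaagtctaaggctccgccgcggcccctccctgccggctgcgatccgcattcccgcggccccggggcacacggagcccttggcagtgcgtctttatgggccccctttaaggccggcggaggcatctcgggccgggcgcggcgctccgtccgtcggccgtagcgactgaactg
The motifs searched were TATAAA, the CCAAT box, the GC box GGGCGG, the PBX-HOX site TGATNNAT, the nuclear receptor half-site AGGTCA and the cyclic AMP response element TGACGTCA, which occur in 10.8%, 32.0%, 42.5%, 6.49%, 12.1% and 1.63% of 34943 upstream windows of 250 bases. The HOXA13 window held 4 GC boxes, 1 of which directly follows its CCAAT box without sharing a base. HOXA4 held 1 CCAAT box and 1 GC box and HOXA2 held 1 CCAAT box, while no searched letters were found in the HOXD8 window. The printed windows are shorter than 250 bases, at 122 for HOXA2, 208 for HOXA4, 235 for HOXA13 and 239 for HOXD8. In its full 250 bases, which run past the GENCODE gene start, HOXA2 held 4 CCAAT boxes and 1 PBX-HOX site. For HOXA4, HOXA13 and HOXD8 the counts in 250 bases were those of the printed windows. GC content was 54.1% for HOXA2, 74.0% for HOXA4, 79.1% for HOXA13 and 72.0% for HOXD8.

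Each edited line was then set against WT, first across all members. Fold changes are log2 values (log2FC, ± SE) from edgeR's quasi-likelihood test, a call is a Benjamini-Hochberg adjusted p under 0.05 over all genes tested, and the 3 comparisons of a table share their WT libraries. In day 30 tumours of het1, 22 of 36 members rose and 1 fell, where 51.5% of all genes were called (26.8% higher and 24.8% lower). In het2 tumours 13 rose and 9 fell, where 49.2% of all genes were called (24.4% higher and 24.8% lower). Homo tumours had 21 members that rose and 6 that fell, where 54.8% of all genes were called (27.1% higher and 27.7% lower). In culture 22 of 35 rose and 3 fell in het1, where 62.8% of all genes were called (32% higher and 30.8% lower). Het2 cultures had 15 that rose and 13 that fell, where 68.5% of all genes were called (35.1% higher and 33.3% lower). Among homo cultures 16 rose and 10 fell, where 70.5% of all genes were called (35.4% higher and 35.1% lower). Called in either direction were 63.9%, 61.1% and 75% of the members in het1, het2 and homo tumours, and 71.4%, 80% and 74.3% in the cultures. Median log2FC over the tested members was 0.57, 0.05 and 0.58 in het1, het2 and homo tumours, beside 0.017, -0.015 and 0.011 over all genes. In het1, het2 and homo cultures it was 0.67, -0.02 and 0.33, beside 0.025, 0.017 and 0.005 over all genes.

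Markers of host tissue also differed between these tumours. The fibroblast sum was 117.5 to 300.2 CPM in het1, 109.6 to 357.0 in het2 and 326.3 to 501.7 in homo tumours, against 224.8 to 370.6 in WT tumours. The sum of 8 endothelial markers was 1.49 to 2.08 CPM in het1, 6.51 to 8.92 in het2 and 5.34 to 6.23 in homo tumours, against 2.54 to 3.54 in WT tumours, so het1 lay below and het2 and homo above WT. At a mean of 1 CPM or more were 0, 3 and 1 of these in het1, het2 and homo tumours, against 1 in WT tumours, with EMCN below 0.1 CPM in each line. The sum of 8 myeloid markers was 13.4 to 16.4 CPM in het1, 25.1 to 31.5 in het2 and 17.0 to 20.3 in homo tumours, against 32.5 to 45.9 in WT tumours, so every edited tumour lay below WT. Of the 8, TYROBP and FCER1G were below 0.1 CPM in each line. Cultures, which were not xenografts, had myeloid sums of 1.37 to 4.18 CPM in edited lines and 7.10 to 7.29 in WT. Their endothelial sums were 0.40 to 0.83 CPM in edited lines and 1.42 to 2.53 in WT. How much of the tumour differences in these sums came from host cells was not tested. Skeletal muscle markers summed to 2.22 to 55.2 CPM in het1, 1.04 to 28.2 in het2 and 1.56 to 53.1 in homo tumours, against 1.24 to 46.8 in WT tumours.

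The part of host tissue in the tumour results was not tested. A fit with host markers (fibroblast, endothelial and myeloid, averaged as log2 CPM in each library) as a covariate was made. This average was -0.65 to -0.46 in WT tumours, without overlap with het2 (-0.23 to 0.38) or homo (0.09 to 0.36). In het1 tumours it overlapped WT (-0.50 to -0.08). The fit therefore cannot tell host tissue from line in het2 and homo. The fibroblast sum was also higher in edited than in WT cultures, which were not xenografts. In that fit 11 members were called in het2 tumours, against 22 without it, while calls over all genes fell from 11084 to 7547. In homo tumours 21 members were called against 27, and 7465 of all genes against 12348. In het1 tumours 24 members were called against 23, and 10992 of all genes against 11612. The calls lost in het2 were HOXA5, HOXA10, HOXB6, HOXB7, HOXB9, HOXC8, HOXC9, HOXC13, HOXD1, HOXD9, HOXD10 and HOXD11. In homo tumours HOXA11, HOXB3, HOXB5, HOXB6, HOXB7, HOXC9 and HOXD10 lost theirs. HOXA6 and HOXA9 did so in het1. Calls were gained for HOXB4, HOXC11 and HOXD1 in het1 and for HOXA3, with a fall, in het2 (-0.51, adjusted p = 0.0355) and homo (-0.56, adjusted p = 0.0295).

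The clusters differed from each other. Their counts are read beside the shares of all genes called in het1, het2 and homo. These were 62.8%, 68.5% and 70.5% in culture and 51.5%, 49.2% and 54.8% in tumours. In culture HOXA rose most widely, with 9, 8 and 7 of 11 members higher and 1, 1 and 2 lower in het1, het2 and homo. HOXA in tumours had 6, 3 and 4 higher and 1, 3 and 2 lower. Called HOXA members made up 90.9%, 81.8% and 81.8% in culture. In tumours they made up 63.6%, 54.5% and 54.5%, close to the all-gene shares in het2 and homo. HOXB split by line in culture, with 5 of 9 members higher and 1 lower in het1, 0 higher and 9 lower in het2, and 1 higher and 6 lower in homo. In tumours the same cluster was mostly higher, with 5, 5 and 7 members higher and 0, 1 and 1 lower in het1, het2 and homo. Called HOXB members made up 66.7%, 100% and 77.8% in culture and 55.6%, 66.7% and 88.9% in tumours. HOXC had 5, 1 and 3 of 8 members higher and 0, 4 and 3 lower in tumours, and 5, 2 and 4 higher and 1, 3 and 2 lower in culture. Called HOXC members made up 62.5%, 62.5% and 75% in tumours and 75%, 62.5% and 75% in culture. HOXD moved almost only upward, with 6, 4 and 7 of 8 higher and 0, 1 and 0 lower in tumours, and 3, 5 and 4 of 7 higher and 0 lower in culture. Called HOXD members made up 75%, 62.5% and 87.5% in tumours and 42.9%, 71.4% and 57.1% in culture.

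**Figure D2:**
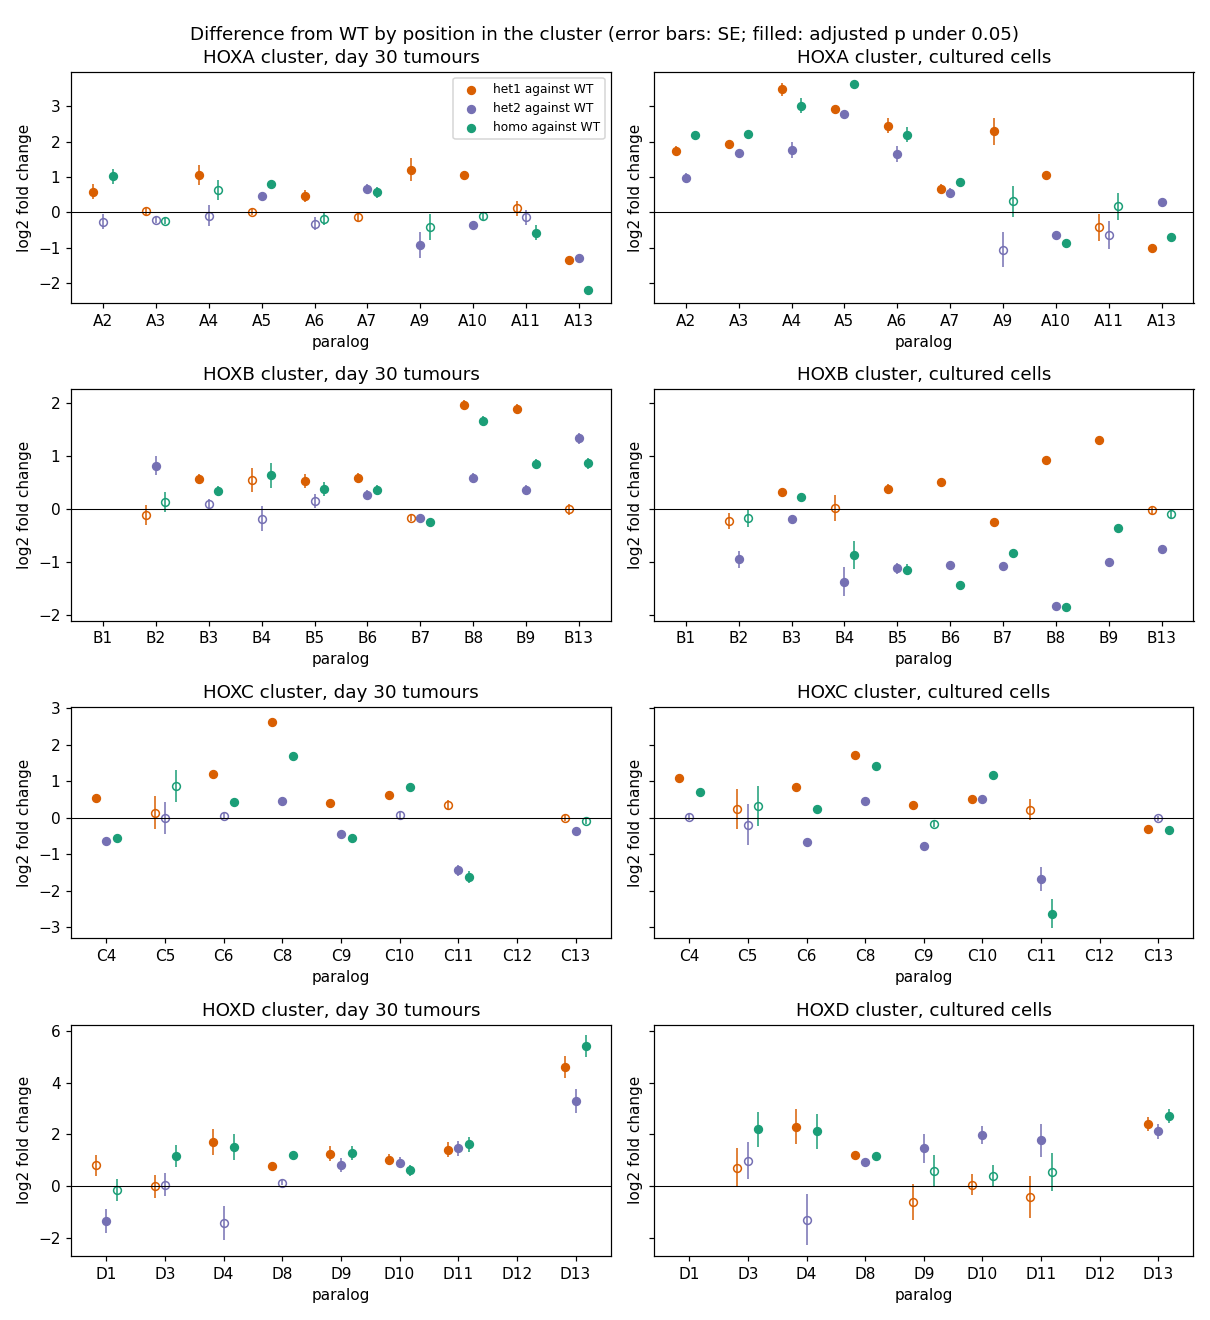
Log2 fold change against WT for tested members, in chromosomal order within its cluster, for the 3 edited lines in day 30 tumours and in culture, with filled points for adjusted p under 0.05 and SE bars. In culture HOXA2 to HOXA6 lie well above 0 in each line (0.97 to 3.62) while HOXB members lie below 0 in het2.

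In the HOXA cluster the 3′ genes were higher in all edited cultures than in WT cultures, and fewer of them were called in tumours. HOXA2, which specifies the second branchial arch, was low in tumours, at 1.50, 1.47, 0.878 and 1.06 CPM in het1, 0.760, 0.649, 0.640 and 0.674 in het2 and 1.39, 1.55, 2.38 and 1.27 in homo tumours, against 0.722, 0.857, 0.986 and 0.715 in WT tumours. Homo tumours lay above all WT tumours, while het1 and het2 overlapped them, and log2FC was 0.58 ± 0.22 in het1, -0.27 ± 0.22 in het2 and 1.01 ± 0.21 in homo tumours. HOXA2 was called in het1 and homo (adjusted p = 0.0299 and 0.000407) and not in het2 (0.337). The het1 call was lost without WT replicate 0 or 4 or het1 replicate 1 or 2 (adjusted p = 0.0766 to 0.0943). Cultures held more of it, with 4.88, 4.14 and 5.81 CPM in het1, 2.82, 2.65 and 3.20 in het2 and 7.22, 5.71 and 7.11 in homo cultures, against 1.68, 1.47 and 1.31 in WT cultures, and edited cultures were all above WT, at log2FC 1.74 ± 0.14 in het1, 0.97 ± 0.14 in het2 and 2.18 ± 0.13 in homo cells. For HOXA2 each line passed the test (adjusted p = 6.59e-13, 3.73e-07 and 1.09e-15).

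HOXA3, needed for thymus and parathyroid formation, gave 17.5, 15.4, 17.0 and 15.6 CPM in het1, 14.5, 15.6, 12.7 and 12.7 in het2 and 13.7, 10.9, 16.7 and 13.2 in homo tumours, against 16.2, 18.3, 14.4 and 15.4 in WT tumours. Each edited group overlapped WT, and the differences were 0.03 ± 0.11 in het1, -0.21 ± 0.11 in het2 and -0.24 ± 0.11 in homo tumours. HOXA3 was called in none of them (adjusted p = 0.853, 0.107 and 0.0673). In culture the lines separated cleanly, at 47.8, 46.9 and 48.0 CPM in het1, 40.2, 39.6 and 40.0 in het2 and 60.8, 56.5 and 57.0 in homo cultures, against 13.4, 11.6 and 12.5 in WT cultures. These amounted to log2FC 1.93 ± 0.05 in het1, 1.68 ± 0.05 in het2 and 2.22 ± 0.05 in homo cells. HOXA3 passed the test in each line (adjusted p = 1.55e-26, 5.95e-25 and 1.76e-28). HOXA4 was near the lower end of measurement in tumours, with 0.773, 0.829, 0.671 and 0.961 CPM in het1, 0.452, 0.389, 0.213 and 0.394 in het2 and 0.444, 0.391, 0.852 and 0.717 in homo tumours, against 0.265, 0.447, 0.510 and 0.331 in WT tumours. Only het1 passed the test there, at 1.06 ± 0.28 in het1, -0.10 ± 0.29 in het2 and 0.64 ± 0.29 in homo tumours (adjusted p = 0.00336, 0.809 and 0.064). The cultures gave 4.34, 3.93 and 4.33 CPM in het1, 1.27, 1.30 and 1.25 in het2 and 2.98, 3.46 and 2.71 in homo cultures, against 0.548, 0.427 and 0.197 in WT cultures, and every edited library lay above the highest WT library. Its culture log2FC values were 3.48 ± 0.19 in het1, 1.76 ± 0.22 in het2 and 3.02 ± 0.20 in homo cells. HOXA4 was called in all 3 lines (adjusted p = 1.2e-16, 1.57e-08 and 7.23e-15).

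HOXA5, the member with the best described part in lung formation, showed the largest culture differences of the cluster in het2 and homo. Tumours contained 7.62, 7.33, 7.76 and 6.84 CPM in het1, 10.8, 9.41, 10.0 and 9.79 in het2 and 13.0, 10.0, 15.9 and 12.0 in homo tumours, against 7.25, 8.12, 6.61 and 7.20 in WT tumours. Homo and het2 tumours were above all WT tumours and het1 tumours were not, with log2FC 0.02 ± 0.11 in het1, 0.46 ± 0.11 in het2 and 0.81 ± 0.11 in homo tumours. HOXA5 passed in het2 and homo (adjusted p = 0.00138 and 2.06e-06) and not in het1 (0.904). The het2 difference was 0.32 with host markers as a covariate and did not pass (adjusted p = 0.227). The cultured lines contained 28.0, 28.9 and 31.0 CPM in het1, 25.5, 27.5 and 27.3 in het2 and 48.5, 48.3 and 46.9 in homo cultures, against 4.06, 3.90 and 3.76 in WT cultures, so that each edited line held several times the WT level. There log2FC was 2.91 ± 0.06 in het1, 2.78 ± 0.06 in het2 and 3.62 ± 0.06 in homo cells. HOXA5 passed in every line (adjusted p = 1.14e-28, 2.99e-28 and 8.03e-32). HOXA6 was measured at 1.47, 1.49, 1.14 and 1.33 CPM in het1, 0.826, 0.878, 0.730 and 0.700 in het2 and 1.01, 0.880, 0.817 and 0.773 in homo tumours, against 1.30, 0.770, 0.951 and 0.918 in WT tumours. Each edited group overlapped WT, and het1 alone was called, at log2FC 0.46 ± 0.17 in het1, -0.33 ± 0.18 in het2 and -0.18 ± 0.18 in homo tumours (adjusted p = 0.033, 0.139 and 0.417). That call was lost with host markers as a covariate (adjusted p = 0.0964), with no filter (adjusted p = 0.107), in a fit of only the groups compared (adjusted p = 0.052) and without WT replicate 1, 2 or 4 or het1 replicate 1 or 2 (adjusted p = 0.0698 to 0.116). Its culture values were 2.30, 2.20 and 2.10 CPM in het1, 1.28, 1.16 and 1.33 in het2 and 1.89, 1.55 and 2.07 in homo cultures, against 0.370, 0.565 and 0.278 in WT cultures, all edited libraries being above WT, at log2FC 2.46 ± 0.21 in het1, 1.65 ± 0.22 in het2 and 2.19 ± 0.21 in homo cells. HOXA6 passed the test in each line (adjusted p = 4.23e-12, 5.03e-08 and 7.24e-11). HOXA7 values in tumours were 1.82, 1.97, 1.55 and 2.30 CPM in het1, 2.96, 3.21, 3.61 and 3.51 in het2 and 3.42, 2.79, 2.88 and 3.38 in homo tumours, against 2.02, 2.61, 1.75 and 2.08 in WT tumours, and its culture log2FC values were smaller than those of its neighbours, at 0.67 ± 0.12 in het1, 0.56 ± 0.12 in het2 and 0.86 ± 0.12 in homo cells. HOXA7 was called in all 3 lines (adjusted p = 9.19e-06, 0.000108 and 9.72e-08). Over the stretch from HOXA2 to HOXA7, singled out after its values were seen, 6 of 6 members rose in each of the 3 edited cultures, and 3, 2 and 3 rose with 0 falling in het1, het2 and homo tumours. Of all genes 32%, 35.1% and 35.4% rose in those cultures, and 26.8%, 24.4% and 27.1% in those tumours. Exons shared with antisense RNAs, HOXA-AS3 among them, made up 15.4% of HOXA3, 16.3% of HOXA4, 39.3% of HOXA6 and 62.5% of HOXA7. The counts of these 4 genes may therefore not be independent. HOXA2 and HOXA5 share no exon.

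The 5′ HOXA genes did not follow. HOXA9, a regulator of blood progenitors, was low, at 0.772, 0.788 and 0.826 CPM in het1, 0.107, 0.103 and 0.0224 in het2 and 0.163, 0.219 and 0.218 in homo cultures, against 0.145, 0.110 and 0.220 in WT cultures. In het1 cultures it rose, at log2FC 2.29 ± 0.38, and every het1 library lay above all others. In tumours het1 was again above WT, with 0.525, 0.618, 0.968 and 0.569 CPM in het1, 0.231, 0.200, 0.123 and 0.0382 in het2 and 0.143, 0.279, 0.198 and 0.248 in homo tumours, against 0.301, 0.236, 0.313 and 0.310 in WT tumours, giving log2FC 1.20 ± 0.33 in het1, -0.94 ± 0.37 in het2 and -0.41 ± 0.36 in homo tumours. HOXA9 passed in het1 and het2 (adjusted p = 0.00461 and 0.0412) and not in homo (0.356). The het1 value was 0.73 with host markers as a covariate and did not pass (adjusted p = 0.109). The het2 fall did not pass with no filter, with the replicate block, in a fit of only the groups compared or when any of 7 single libraries was left out (adjusted p = 0.0508 to 0.118). HOXA10, known for uterine patterning, was raised in het1 and lower in het2 and homo cultures, which held 6.33, 7.38 and 7.31 CPM in het1, 1.87, 2.41 and 2.23 in het2 and 1.53, 2.07 and 1.95 in homo cultures, against 3.41, 3.55 and 3.24 in WT cultures. The corresponding log2FC values were 1.04 ± 0.11 in het1, -0.65 ± 0.12 in het2 and -0.88 ± 0.13 in homo cells. HOXA10 passed in every line (adjusted p = 7.82e-10, 2.33e-05 and 3.34e-07). Its tumour values, 5.90, 6.93, 6.91 and 6.86 CPM in het1, 2.30, 2.30, 2.90 and 2.34 in het2 and 3.04, 3.20, 2.74 and 2.79 in homo tumours, against 2.97, 3.29, 2.96 and 3.52 in WT tumours, again put het1 above and het2 below WT, at 1.06 ± 0.11 in het1, -0.37 ± 0.11 in het2 and -0.12 ± 0.11 in homo tumours. HOXA10 passed in het1 and het2 (adjusted p = 5.62e-08 and 0.00809) and not in homo (0.396). The het2 call was lost with host markers as a covariate (-0.32, adjusted p = 0.253). HOXA11, which shapes the forearm together with HOXD11 in the mouse, reached 0.641, 0.737, 0.904 and 1.06 CPM in het1, 0.617, 0.779, 0.853 and 0.534 in het2 and 0.444, 0.433, 0.665 and 0.510 in homo tumours, against 0.614, 0.894, 0.754 and 0.822 in WT tumours, and was called only in homo tumours. That call (-0.58 ± 0.22, adjusted p = 0.0332) was lost when any of 6 libraries was left out (WT replicates 1, 2 and 4, homo replicates 0, 1 and 5) and under 3 other settings.

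HOXA13, the terminal member, which patterns digits and the genital tract, ran the other way. Day 30 tumours contained 8.53, 7.97, 9.72 and 9.79 CPM in het1, 9.81, 9.78, 9.32 and 8.75 in het2 and 4.71, 5.18, 5.24 and 5.05 in homo tumours, against 26.0, 22.2, 22.2 and 21.7 in WT tumours. Every edited tumour was below every WT tumour, and log2FC was -1.35 ± 0.08 in het1, -1.29 ± 0.08 in het2 and -2.19 ± 0.08 in homo tumours. HOXA13 was called in all 3 lines (adjusted p = 1.86e-11, 6.48e-11 and 1.86e-14). In culture the values were 4.87, 4.70 and 4.83 CPM in het1, 12.4, 10.4 and 12.6 in het2 and 6.03, 5.93 and 5.61 in homo cultures, against 9.39, 9.74 and 9.71 in WT cultures. Het1 and homo cultures were below WT and het2 cultures above it, at -1.0 ± 0.08 in het1, 0.30 ± 0.07 in het2 and -0.71 ± 0.08 in homo cells. For HOXA13 each line passed the test (adjusted p = 1.11e-12, 0.00054 and 1.44e-09).

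In the HOXB cluster het2 and homo cultures held less of most members than WT cultures, while in tumours of the same lines most of the called members rose. HOXB8, a mid-cluster gene active in the posterior trunk, showed the widest contrast. Its tumours held 42.5, 45.4, 39.7 and 48.1 CPM in het1, 19.1, 17.3, 13.3 and 17.8 in het2 and 36.1, 34.1, 36.4 and 36.4 in homo tumours, against 13.1, 9.93, 11.3 and 10.9 in WT tumours. All edited tumours were above all WT tumours, with log2FC 1.96 ± 0.10 in het1, 0.58 ± 0.10 in het2 and 1.66 ± 0.10 in homo tumours. HOXB8 passed in every line (adjusted p = 1.45e-12, 3.8e-05 and 1.14e-11). Cultures held 35.3, 35.3 and 39.4 CPM in het1, 5.53, 5.53 and 5.32 in het2 and 5.90, 5.43 and 4.91 in homo cultures, against 18.9, 20.2 and 19.0 in WT cultures. Het1 cultures were the highest and het2 and homo cultures the lowest, at 0.92 ± 0.06 in het1, -1.83 ± 0.07 in het2 and -1.83 ± 0.07 in homo cells. HOXB8 passed the test in each line (adjusted p = 1.48e-15, 6.4e-22 and 1.15e-21). Its neighbour HOXB9 measured 39.8, 46.2, 38.5 and 45.8 CPM in het1, 16.6, 14.6, 11.7 and 16.0 in het2 and 20.6, 21.9, 18.7 and 21.8 in homo tumours, against 12.1, 10.9, 10.5 and 12.5 in WT tumours. Het2 partly overlapped WT and het1 was far above it, at log2FC 1.89 ± 0.10 in het1, 0.36 ± 0.10 in het2 and 0.85 ± 0.10 in homo tumours. HOXB9 was called in all 3 lines (adjusted p = 2.14e-12, 0.00422 and 2.11e-07). Het2 had 0.43 with host markers as a covariate (adjusted p = 0.0651). In culture it measured 30.8, 32.7 and 34.1 CPM in het1, 6.77, 6.79 and 6.28 in het2 and 10.2, 10.4 and 10.2 in homo cultures, against 12.6, 13.5 and 13.3 in WT cultures, and het1 alone rose, at 1.31 ± 0.05 in het1, -0.99 ± 0.06 in het2 and -0.36 ± 0.06 in homo cells (adjusted p = 5.82e-20, 1.36e-15 and 3.59e-06).

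HOXB5, which in the mouse takes part in airway branching, gave 11.7, 10.7, 9.86 and 9.41 CPM in het1, 9.74, 7.70, 6.34 and 8.27 in het2 and 7.80, 11.2, 9.02 and 9.45 in homo tumours, against 8.42, 6.51, 6.76 and 7.10 in WT tumours. It was called in het1 and homo tumours, at 0.53 ± 0.13 in het1, 0.15 ± 0.13 in het2 and 0.38 ± 0.13 in homo tumours (adjusted p = 0.00123, 0.326 and 0.0145). The homo call was lost without homo replicate 1 (adjusted p = 0.0617) and with host markers as a covariate (0.32, adjusted p = 0.36). In culture it gave 6.63, 7.88 and 7.86 CPM in het1, 2.40, 2.87 and 2.68 in het2 and 2.45, 2.66 and 2.70 in homo cultures, against 5.36, 6.02 and 5.75 in WT cultures, with het2 and homo libraries all below WT and log2FC 0.38 ± 0.09 in het1, -1.11 ± 0.10 in het2 and -1.14 ± 0.11 in homo cells. For HOXB5 each line passed the test (adjusted p = 0.000642, 2.09e-11 and 2.34e-11). HOXB6 tumours held 10.4, 11.8, 10.7 and 10.0 CPM in het1, 9.94, 7.66, 7.46 and 9.11 in het2 and 8.54, 10.2, 9.11 and 8.77 in homo tumours, against 7.71, 6.63, 7.03 and 6.97 in WT tumours, at log2FC 0.60 ± 0.10 in het1, 0.27 ± 0.10 in het2 and 0.37 ± 0.10 in homo tumours. HOXB6 passed in every line (adjusted p = 2.33e-05, 0.0246 and 0.00271). With host markers as a covariate neither het2 (0.30, adjusted p = 0.198) nor homo (0.41, adjusted p = 0.103) passed, and het2 did not pass without WT replicate 1, 2 or 4 or het2 replicate 0 or 4 (adjusted p = 0.0504 to 0.11). HOXB6 cultures held 13.7, 13.5 and 13.0 CPM in het1, 4.54, 4.56 and 4.45 in het2 and 3.31, 3.87 and 3.23 in homo cultures, against 9.00, 10.4 and 8.75 in WT cultures, and homo cultures were the lowest of the lines, at log2FC 0.51 ± 0.08 in het1, -1.05 ± 0.08 in het2 and -1.43 ± 0.09 in homo cells. HOXB6 passed the test in each line (adjusted p = 4.93e-07, 4.3e-13 and 8.07e-16). HOXB4, known for expanding blood stem cells, was low, at 0.885, 0.829 and 1.02 CPM in het1, 0.310, 0.529 and 0.213 in het2 and 0.504, 0.496 and 0.483 in homo cultures, against 0.757, 0.936 and 0.986 in WT cultures. Het2 and homo cultures were below WT, with log2FC 0.02 ± 0.25 in het1, -1.37 ± 0.27 in het2 and -0.86 ± 0.27 in homo cells (adjusted p = 0.948, 4.4e-05 and 0.00498), and its tumour values were 0.875, 0.961, 0.465 and 0.795 CPM in het1, 0.463, 0.399, 0.483 and 0.522 in het2 and 0.840, 0.992, 0.770 and 0.690 in homo tumours, against 0.626, 0.422, 0.650 and 0.416 in WT tumours with a call in homo alone (0.64 ± 0.23), lost with no filter and without WT replicate 1 or 4 or homo replicate 1 (adjusted p = 0.0504 to 0.0836).

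HOXB7, the most abundant member per kilobase in the tumours of every line, measured 36.0, 40.0, 38.5 and 40.2 CPM in het1, 33.8, 36.9, 42.0 and 41.3 in het2 and 34.8, 38.2, 35.4 and 37.0 in homo tumours, against 45.4, 39.5, 43.0 and 44.8 in WT tumours. Homo tumours were all below WT and the other lines overlapped it, at log2FC -0.16 ± 0.07 in het1, -0.17 ± 0.07 in het2 and -0.25 ± 0.07 in homo tumours. HOXB7 was called in het2 and homo (adjusted p = 0.0472 and 0.00371) and not in het1 (0.0555). With host markers as a covariate both values turned positive and did not pass, at 0.11 in het2 (adjusted p = 0.446) and 0.05 in homo (adjusted p = 0.752). The het2 call was also lost under RLE size factors, DESeq2, no filter, the replicate block, a fit of only the groups compared and when any of 13 single libraries was left out (adjusted p = 0.0555 to 0.181). In culture each edited line held less, with 27.4, 30.0 and 27.9 CPM in het1, 16.4, 15.9 and 15.4 in het2 and 19.7, 18.0 and 19.0 in homo cultures, against 34.8, 33.7 and 32.5 in WT cultures, giving log2FC -0.24 ± 0.05 in het1, -1.08 ± 0.05 in het2 and -0.83 ± 0.05 in homo cells. For HOXB7 each line passed the test (adjusted p = 5.48e-05, 5.19e-19 and 5.34e-16). HOXB13, a partner of the androgen receptor in prostate, was raised in het2 and homo tumours. The tumours measured 15.7, 16.9, 17.8 and 21.6 CPM in het1, 42.4, 47.4, 41.1 and 51.0 in het2 and 30.7, 33.2, 31.9 and 35.4 in homo tumours, against 21.8, 16.2, 18.2 and 15.9 in WT tumours. Those groups did not overlap WT, and log2FC was -0.0023 ± 0.11 in het1, 1.33 ± 0.10 in het2 and 0.86 ± 0.10 in homo tumours. HOXB13 was called in het2 and homo (adjusted p = 3.57e-09 and 8.59e-07) and not in het1 (0.988). In culture HOXB13 measured 12.0, 10.9 and 10.0 CPM in het1, 6.87, 6.47 and 6.63 in het2 and 10.5, 9.94 and 10.9 in homo cultures, against 12.3, 9.78 and 11.5 in WT cultures and fell in het2 alone, at -0.02 ± 0.08 in het1, -0.75 ± 0.08 in het2 and -0.10 ± 0.08 in homo cells (adjusted p = 0.828, 7.44e-10 and 0.261). HOXB2, a hindbrain gene, had 0.889, 1.16, 1.23 and 1.42 CPM in het1, 2.30, 2.31, 1.62 and 2.79 in het2 and 1.05, 1.22, 1.68 and 1.60 in homo tumours, against 1.16, 1.23, 1.35 and 1.36 in WT tumours, with all het2 tumours above WT and log2FC -0.11 ± 0.19 in het1, 0.82 ± 0.19 in het2 and 0.13 ± 0.19 in homo tumours. HOXB2 passed in het2 (adjusted p = 0.000918) and not in het1 and homo (0.661 and 0.592). In cultures it had 1.86, 1.52 and 1.83 CPM in het1, 1.10, 1.06 and 1.01 in het2 and 1.88, 1.78 and 1.73 in homo cultures, against 1.59, 2.33 and 2.13 in WT cultures, with het2 the lowest, at -0.22 ± 0.16 in het1, -0.94 ± 0.16 in het2 and -0.17 ± 0.16 in homo cells. HOXB2 was called in het2 (adjusted p = 5.71e-06) and not in het1 and homo (0.219 and 0.328). HOXB3 had log2FC values of 0.56, 0.10 and 0.35 in het1, het2 and homo tumours, and 0.33, -0.18 and 0.24 in the cultures.

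In the HOXC cluster HOXC8 rose in all edited cultures and in het1 and homo tumours, and HOXC11 was lower in het2 and homo. HOXC8, a gene of the thoracic region, measured 14.3, 15.1, 14.2 and 13.9 CPM in het1, 3.32, 3.66, 3.21 and 2.51 in het2 and 8.59, 6.69, 8.06 and 6.70 in homo tumours, against 2.12, 2.63, 2.22 and 2.37 in WT tumours. Het1 tumours were highest, homo next, and het2 overlapped WT, with log2FC 2.62 ± 0.12 in het1, 0.45 ± 0.12 in het2 and 1.69 ± 0.12 in homo tumours. For HOXC8 each line passed the test (adjusted p = 2.19e-13, 0.00325 and 1.11e-10). In het2 the value was 0.08 with host markers as a covariate and did not pass (adjusted p = 0.784). In culture it measured 19.3, 18.3 and 18.9 CPM in het1, 7.50, 8.35 and 7.55 in het2 and 15.5, 15.4 and 14.9 in homo cultures, against 6.22, 5.65 and 5.31 in WT cultures, where every edited library exceeded WT, at 1.72 ± 0.07 in het1, 0.45 ± 0.07 in het2 and 1.42 ± 0.07 in homo cells. HOXC8 passed in every line (adjusted p = 1.2e-20, 1.72e-06 and 2.33e-18). HOXC11 tumours contained 5.39, 6.28, 5.05 and 5.65 CPM in het1, 1.75, 1.51, 1.32 and 1.92 in het2 and 1.14, 1.24, 1.35 and 1.96 in homo tumours, against 5.11, 4.26, 4.20 and 4.06 in WT tumours. Het2 and homo tumours were all below WT, with log2FC 0.34 ± 0.15 in het1, -1.44 ± 0.15 in het2 and -1.63 ± 0.16 in homo tumours. HOXC11 passed in het2 and homo (adjusted p = 1.41e-07 and 2.11e-08) and not in het1 (0.0566). It was low in culture, at 0.498, 0.774 and 0.756 CPM in het1, 0.167, 0.168 and 0.202 in het2 and 0.0817, 0.0876 and 0.109 in homo cultures, against 0.789, 0.441 and 0.522 in WT cultures, with the same lines lower, at log2FC 0.22 ± 0.29 in het1, -1.68 ± 0.34 in het2 and -2.63 ± 0.39 in homo cells. HOXC11 was called in het2 and homo (adjusted p = 4.94e-05 and 4.1e-07) and not in het1 (0.536).

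HOXC4 tumours held 11.7, 10.9, 10.5 and 11.4 CPM in het1, 4.72, 5.20, 5.02 and 4.54 in het2 and 4.50, 5.41, 5.18 and 5.48 in homo tumours, against 8.09, 6.64, 7.63 and 8.07 in WT tumours, so that het1 was above and het2 and homo were below WT, with log2FC 0.55 ± 0.09 in het1, -0.64 ± 0.09 in het2 and -0.56 ± 0.09 in homo tumours. For HOXC4 each line passed the test (adjusted p = 2.12e-05, 4.19e-06 and 1.73e-05). In culture HOXC4 was higher in het1 and homo, at log2FC 1.09 ± 0.07 in het1, 0.02 ± 0.08 in het2 and 0.70 ± 0.07 in homo cells. HOXC4 was called in het1 and homo (adjusted p = 1.06e-14 and 5e-10) and not in het2 (0.826). HOXC9 tumours held 11.1, 10.5, 12.3 and 11.0 CPM in het1, 6.17, 5.74, 6.58 and 6.50 in het2 and 4.83, 6.59, 5.62 and 6.08 in homo tumours, against 8.59, 8.38, 7.67 and 9.66 in WT tumours, in the same pattern, with log2FC 0.39 ± 0.10 in het1, -0.46 ± 0.10 in het2 and -0.57 ± 0.10 in homo tumours. HOXC9 passed the test in each line (adjusted p = 0.00185, 0.000515 and 4.83e-05). With the host markers as a covariate the HOXC9 falls in het2 and homo no longer passed (adjusted p = 0.109 and 0.0558). HOXC10 cultures held 6.76, 6.53 and 7.03 CPM in het1, 6.58, 6.79 and 7.19 in het2 and 10.9, 10.4 and 11.3 in homo cultures, against 4.56, 4.79 and 5.00 in WT cultures, all edited libraries being above WT, at log2FC 0.50 ± 0.08 in het1, 0.52 ± 0.08 in het2 and 1.18 ± 0.08 in homo cells. HOXC10 was called in all 3 lines (adjusted p = 2.08e-06, 8.16e-07 and 5.53e-15). In tumours it was 7.38, 6.91, 7.09 and 6.49 CPM in het1, 5.08, 4.63, 4.29 and 5.12 in het2 and 8.54, 8.17, 7.52 and 8.02 in homo tumours, against 5.05, 4.44, 3.77 and 4.79 in WT tumours and passed in het1 and homo, at log2FC 0.62 ± 0.10 in het1, 0.08 ± 0.10 in het2 and 0.84 ± 0.10 in homo tumours (adjusted p = 1.58e-05, 0.524 and 3.04e-07). HOXC13, a regulator of hair and nail keratins, differed little, with cultures at 10.5, 9.47 and 11.4 CPM in het1, 11.8, 13.9 and 12.8 in het2 and 10.1, 10.6 and 10.1 in homo cultures, against 13.8, 13.5 and 11.7 in WT cultures. Its culture log2FC values were -0.31 ± 0.08 in het1, -0.02 ± 0.07 in het2 and -0.34 ± 0.08 in homo cells. HOXC13 passed in het1 and homo (adjusted p = 0.00062 and 0.000214) and not in het2 (0.84). HOXC6 was called in het1 and homo tumours, at log2FC 1.18 ± 0.09 in het1, 0.04 ± 0.09 in het2 and 0.43 ± 0.09 in homo tumours (adjusted p = 3.7e-10, 0.714 and 0.000261). HOXC5, whose exons are largely shared, was called in no comparison with WT.

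In the HOXD cluster most members were low, and the called ones rose apart from HOXD1 in het2 tumours. HOXD13, which patterns the digits, was almost silent in WT tumours, with 8 counts over the 4 libraries, and measured 0.773, 0.697, 0.361 and 0.629 CPM in het1, 0.165, 0.220, 0.303 and 0.280 in het2 and 1.06, 1.30, 1.05 and 0.869 in homo tumours, against 0.0241, 0, 0.0464 and 0.0214 in WT tumours. Every edited tumour exceeded every WT tumour, and log2FC was 4.63 ± 0.43 in het1, 3.29 ± 0.47 in het2 and 5.43 ± 0.41 in homo tumours. HOXD13 passed in every line (adjusted p = 1.22e-08, 5.59e-06 and 5.31e-10). In culture it measured 1.15, 1.13 and 1.20 CPM in het1, 1.06, 1.01 and 0.762 in het2 and 1.69, 1.26 and 1.37 in homo cultures, against 0.226, 0.0964 and 0.313 in WT cultures, with 48 counts over the WT libraries and log2FC 2.42 ± 0.28 in het1, 2.12 ± 0.28 in het2 and 2.73 ± 0.27 in homo cells. HOXD13 passed the test in each line (adjusted p = 3.78e-09, 5.68e-08 and 1.46e-10). HOXD8, the most abundant of the cluster, held 15.1, 14.1, 16.9 and 14.9 CPM in het1, 9.76, 10.6, 10.1 and 8.86 in het2 and 19.3, 23.9, 18.9 and 20.7 in homo tumours, against 9.80, 8.75, 8.79 and 8.47 in WT tumours, and het1 and homo tumours were above all WT tumours, at log2FC 0.77 ± 0.08 in het1, 0.14 ± 0.08 in het2 and 1.21 ± 0.08 in homo tumours. HOXD8 was called in het1 and homo (adjusted p = 1.61e-07 and 1.5e-10) and not in het2 (0.199). Its cultures held 10.2, 8.90 and 9.28 CPM in het1, 7.26, 8.52 and 7.98 in het2 and 8.88, 9.28 and 9.97 in homo cultures, against 4.37, 3.75 and 4.28 in WT cultures, where all edited libraries were above WT, at 1.19 ± 0.09 in het1, 0.94 ± 0.09 in het2 and 1.18 ± 0.09 in homo cells. For HOXD8 each line passed the test (adjusted p = 8.68e-14, 2.54e-11 and 9.66e-14).

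HOXD9, HOXD10 and HOXD11, neighbours on the 5′ side, moved alike. HOXD10 and HOXD11 share 16.8% and 21.4% of their exons with each other, so their counts may not be independent. HOXD10 tumours held 4.48, 4.00, 3.77 and 2.67 CPM in het1, 4.21, 3.69, 2.55 and 3.24 in het2 and 2.01, 4.12, 2.14 and 2.88 in homo tumours, against 2.12, 1.50, 1.74 and 1.97 in WT tumours. The edited groups lay above WT apart from overlap in homo, and log2FC was 1.02 ± 0.21 in het1, 0.90 ± 0.21 in het2 and 0.60 ± 0.22 in homo tumours. HOXD10 passed in every line (adjusted p = 0.000495, 0.00161 and 0.0239). The homo call was lost with the replicate block (adjusted p = 0.0872), with host markers as a covariate (0.34, adjusted p = 0.586) and without WT replicate 1 or 2 or homo replicate 1 (adjusted p = 0.0557 to 0.134). The het2 call was lost with the host markers (0.65, adjusted p = 0.23). HOXD10 cultures held 0.162, 0.190 and 0.350 CPM in het1, 0.967, 0.839 and 0.874 in het2 and 0.450, 0.292 and 0.140 in homo cultures, against 0.226, 0.330 and 0.128 in WT cultures, and het2 alone was higher, at 0.05 ± 0.42 in het1, 1.99 ± 0.36 in het2 and 0.41 ± 0.41 in homo cells (adjusted p = 0.928, 1.07e-05 and 0.379). HOXD11 tumours held 0.889, 1.04, 0.891 and 0.605 CPM in het1, 1.02, 0.839, 0.864 and 0.802 in het2 and 0.571, 1.48, 0.805 and 1.08 in homo tumours, against 0.409, 0.372, 0.151 and 0.352 in WT tumours, with all edited tumours above WT and log2FC 1.41 ± 0.30 in het1, 1.46 ± 0.29 in het2 and 1.61 ± 0.29 in homo tumours. HOXD11 passed the test in each line (adjusted p = 0.000431, 0.000311 and 9.19e-05). Het2 had 1.36 with the host markers (adjusted p = 0.0508). HOXD11 cultures held 0.0374, 0.0272 and 0.0420 CPM in het1, 0.179, 0.155 and 0.179 in het2 and 0.0409, 0.146 and 0.0312 in homo cultures, against 0.0322, 0.0138 and 0.0928 in WT cultures, with het2 above the rest, at log2FC -0.44 ± 0.82 in het1, 1.78 ± 0.64 in het2 and 0.56 ± 0.73 in homo cells. HOXD11 was called in het2 (adjusted p = 0.0143) and not in het1 and homo (0.659 and 0.51). HOXD9 had 1.12, 1.26, 0.736 and 0.629 CPM in het1, 0.628, 0.878, 0.550 and 0.687 in het2 and 0.729, 1.38, 0.607 and 1.10 in homo tumours, against 0.421, 0.385, 0.336 and 0.416 in WT tumours, again with every edited tumour above WT. Its log2FC was 1.26 ± 0.28 in het1, 0.82 ± 0.28 in het2 and 1.29 ± 0.28 in homo tumours. For HOXD9 each line passed the test (adjusted p = 0.000648, 0.019 and 0.000483). The het2 call was lost without WT replicate 2 or het2 replicate 1 (adjusted p = 0.0529 to 0.063) and with the host markers (0.92, adjusted p = 0.178). In culture it had 0.0747, 0.0408 and 0.0140 CPM in het1, 0.215, 0.181 and 0.179 in het2 and 0.0817, 0.117 and 0.109 in homo cultures, against 0.113, 0.0275 and 0.0696 in WT cultures, near the floor, and het2 alone was called (1.46 ± 0.56). Leaving out single culture libraries ended the het2 calls of HOXD9 (WT replicate 2 or 3 or het2 replicate 1, adjusted p = 0.0597 to 0.122) and HOXD11 (WT replicate 1 or 2, adjusted p = 0.056 to 0.0891). HOXD4, with exons shared almost throughout, rose in het1 and homo tumours, at log2FC 1.70 ± 0.50 in het1, -1.45 ± 0.66 in het2 and 1.53 ± 0.51 in homo tumours (adjusted p = 0.00716, 0.0765 and 0.0147). HOXD3 rose in homo tumours (1.17 ± 0.42) and HOXD1 fell in het2 tumours (-1.35 ± 0.46), all 3 genes at means below 0.5 CPM. Without WT replicate 4, the homo calls of HOXD3 (adjusted p = 0.0646 to 0.0975 without it, WT replicate 1 or homo replicate 1 or 5) and HOXD4 (adjusted p = 0.0541) were lost. The HOXD1 call was lost with the host markers (-0.34, adjusted p = 0.796) and without WT replicate 4 or het2 replicate 0 or 1 (adjusted p = 0.0502 to 0.0693).

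The edited lines were also set against each other, to ask how homo differs from the mean of het1 and het2 and how het1 differs from het2. Homo tumours had 10 members higher and 7 lower than the mean of het1 and het2 tumours, where 44.7% of all genes were called (22.1% higher and 22.7% lower). Homo cultures had 15 of 35 members higher and 9 lower than the mean of het1 and het2 cultures, where 49.9% of all genes were called (25% higher and 24.9% lower). In tumours HOXD13 (1.47 ± 0.23), HOXA2 (0.86 ± 0.18), HOXD8 (0.76 ± 0.07) and HOXA5 (0.57 ± 0.09) were the highest and HOXC11 (-1.08 ± 0.14), HOXA13 (-0.87 ± 0.08), HOXA11 (-0.56 ± 0.20) and HOXC9 (-0.53 ± 0.09) the lowest by log2FC. In culture the corresponding genes were HOXA2 (0.82 ± 0.10), HOXA5 (0.77 ± 0.04), HOXC10 (0.67 ± 0.06) and HOXD13 (0.46 ± 0.19) above, and HOXC11 (-1.90 ± 0.38), HOXB8 (-1.38 ± 0.06), HOXB6 (-1.16 ± 0.08) and HOXA10 (-1.08 ± 0.11) below. The HOXA11 tumour call did not hold without homo replicate 0, 1 or 5 (adjusted p = 0.0552 to 0.0758), and the HOXD13 culture call did not hold without het1 replicate 1 or 2, het2 replicate 3 or homo replicate 1 or 3 (adjusted p = 0.0571 to 0.25).

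Het1 and het2 differed in most members. Against het2 tumours, het1 tumours had 23 members higher and 4 lower, where 49.3% of all genes were called (25.4% higher and 24% lower). In culture het1 had 24 of 35 higher and 5 lower, where 55.7% of all genes were called (27.6% higher and 28.1% lower). In the HOXB cluster 9 of 9 members were higher in het1 than in het2 cultures. The largest differences in tumours were HOXC8 (2.17 ± 0.11), HOXA9 (2.14 ± 0.36), HOXC11 (1.78 ± 0.15) and HOXB9 (1.53 ± 0.10) above het2, and HOXB13 (-1.34 ± 0.11), HOXB2 (-0.93 ± 0.19), HOXA7 (-0.80 ± 0.14) and HOXA5 (-0.44 ± 0.11) below it. With host markers as a covariate the HOXA5 difference was -0.35 and did not pass (adjusted p = 0.0637). In culture HOXA9 (3.35 ± 0.41), HOXB8 (2.75 ± 0.06), HOXB9 (2.30 ± 0.06) and HOXC11 (1.90 ± 0.33) were above, and HOXD10 (-1.94 ± 0.35), HOXA13 (-1.30 ± 0.08) and HOXC13 (-0.29 ± 0.07) below.

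Tumours and cultures were compared in a joint fit of both tables, added after the data were seen, in which growth as a xenograft and the table a library belongs to cannot be told apart. Against cells of the same line, 17 members were higher and 12 lower in het1 tumours, where 65.2% of all genes were called (36.8% higher and 28.4% lower). In het2 they were 19 and 12, where 66.3% of all genes were called (35.6% higher and 30.6% lower). The homo tumours had 17 and 9, where 64.1% of all genes were called (34.8% higher and 29.3% lower). WT tumours had 17 and 7, where 67.1% of all genes were called (35% higher and 32.1% lower). HOXC11 was higher in tumours of every line, at log2FC 3.16 ± 0.20 in het1, 3.30 ± 0.24 in het2, 4.05 ± 0.28 in homo and 2.97 ± 0.20 in WT. HOXC11 passed in every line (adjusted p = 5.25e-15, 1.34e-13, 7.24e-14 and 2.69e-14). HOXD10 was likewise higher, at 4.11 ± 0.33 in het1, 2.07 ± 0.27 in het2, 3.34 ± 0.32 in homo and 3.07 ± 0.34 in WT. HOXD10 passed the test in each line (adjusted p = 4.02e-12, 7.27e-08, 2.11e-10 and 2.52e-09). HOXD11 was higher too, at 4.64 ± 0.49 in het1, 2.48 ± 0.37 in het2, 3.85 ± 0.44 in homo and 2.71 ± 0.50 in WT. HOXD11 was called in all 4 lines (adjusted p = 7.4e-10, 5.7e-07, 3.84e-09 and 1.6e-05). All tumour libraries of these 3 genes exceeded all culture libraries of the same line. HOXD9 gave 4.46 ± 0.43 in het1, 1.96 ± 0.33 in het2, 3.33 ± 0.38 in homo and 2.53 ± 0.42 in WT. For HOXD9 each line passed the test (adjusted p = 8.85e-11, 5.02e-06, 3.7e-09 and 3.4e-06). Fibroblast markers were mostly higher in the same tumours, at a median log2FC of 2.73 in het1, 3.66 in het2, 3.43 in homo and 4.40 in WT over 11 markers. Of these, 8 were called higher and 1 lower in het1, 9 and 2 in het2, and 10 and 1 in WT. Endothelial markers had a median of 3.97 in het1, 3.98 in het2, 4.75 in homo and 4.96 in WT over 7 tested. Here 4 were called higher and 1 lower in het1, 6 and 0 in het2, and 5 and 2 in WT. EMCN, KDR, PECAM1, TEK, TIE1 and VWF were below 0.1 CPM in WT cultures, so large log2FC values stand for small amounts. The endothelial sum was 1.42 to 2.53 CPM in WT cultures and 2.54 to 3.54 in WT tumours. The myeloid median was 3.17, 2.18, 3.47 and 5.51 over 5 tested, and that of skeletal muscle 5.70, 5.92, 6.17 and 8.16 over 8, in the same order. Called myeloid markers were 5 higher and 0 lower in het1 and in het2, and 3 and 2 in WT. Skeletal muscle had 1, 1 and 5 called higher in het1, het2 and WT, with 0 lower. The part of host tissue in the HOXC11 and HOXD results was not tested.

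The 3′ HOXA genes went the other way in the edited lines. HOXA4 gave -2.26 ± 0.24 in het1, -1.68 ± 0.26 in het2, -2.20 ± 0.24 in homo and 0.07 ± 0.30 in WT. HOXA4 was called in het1, het2 and homo (adjusted p = 5.98e-10, 1.21e-06 and 2.37e-09) and not in WT (0.85). HOXA5 gave -1.88 ± 0.09 in het1, -1.29 ± 0.09 in het2, -1.78 ± 0.09 in homo and 0.95 ± 0.10 in WT. HOXA5 passed the test in each line (adjusted p = 1.32e-17, 5.39e-14, 1.87e-17 and 1.39e-09). HOXA3 gave -1.43 ± 0.09 in het1, -1.39 ± 0.09 in het2, -1.97 ± 0.09 in homo and 0.40 ± 0.10 in WT. HOXA3 was called in all 4 lines (adjusted p = 2.29e-14, 3.08e-14, 1.24e-17 and 0.000521). In WT, HOXA3 and HOXA5 were higher in tumours than in cells, and in each edited line they were lower. HOXA2 was lower in the tumours of all 4 lines, at -1.90 ± 0.18 in het1, -1.95 ± 0.19 in het2, -1.88 ± 0.18 in homo and -0.81 ± 0.20 in WT. For HOXA2 each line passed the test (adjusted p = 1.24e-10, 1.86e-10, 9.45e-11 and 0.000739). In WT tumours HOXA6 (1.33 ± 0.21) and HOXA13 (1.30 ± 0.08) were also among the highest, and HOXC8 (-1.25 ± 0.10), HOXB8 (-0.74 ± 0.09) and HOXB4 (-0.72 ± 0.25) among the lowest, relative to WT cells. The HOXB4 call did not hold without WT culture replicate 3 (adjusted p = 0.0524). In het2, HOXB13 was also much higher in tumours (2.90 ± 0.12) and HOXD13 lower (-1.83 ± 0.29).

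**Figure D3:**
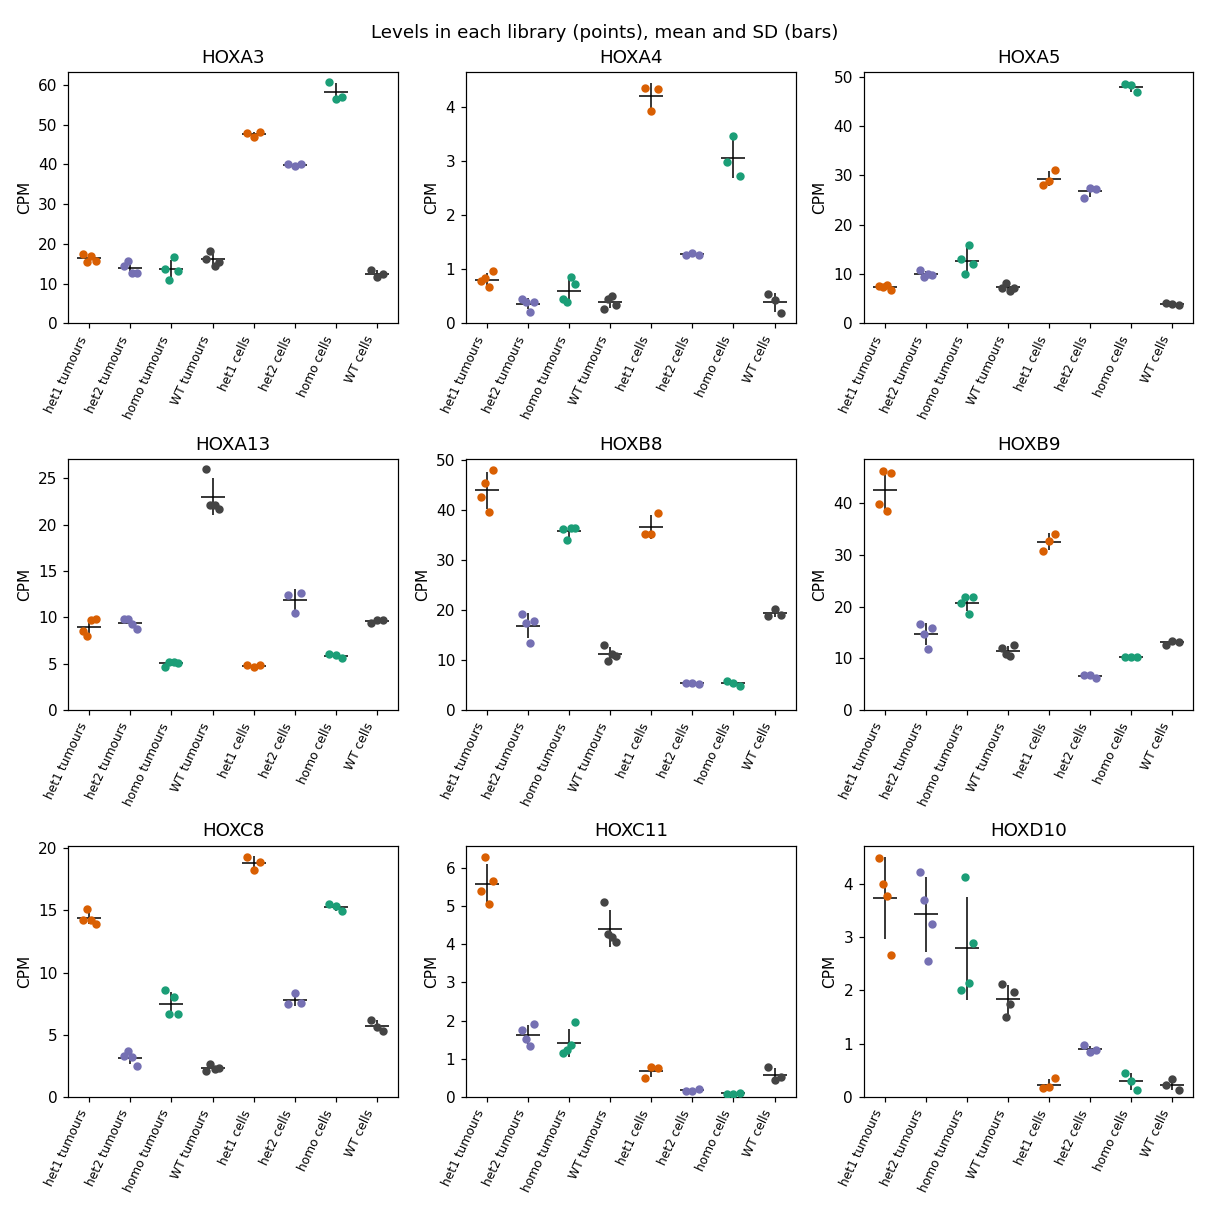
CPM (linear axis from 0) of 9 members in each day 30 tumour library (left in each panel) and each culture library (right) by line, one point per library, with lines and bars for the mean and SD. HOXA3 separates the edited lines from WT in culture and overlaps in tumours, and HOXB8 in het2 and homo lies below WT in culture and above it in tumours.

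Whether the difference from WT itself differed between tumours and culture was tested as an interaction, the log2FC in tumours minus that in cells. For het1, 7 members were positive and 9 negative, where 39.2% of all genes were called (24.2% higher and 15% lower). For het2 these were 11 and 10, where 47.6% of all genes were called (27.2% higher and 20.4% lower). For homo they were 12 and 8, where 49.1% of all genes were called (28.7% higher and 20.4% lower). The median over all genes was 0.101 for het1, 0.065 for het2 and 0.105 for homo, so the values below are read against a shift of that size. HOXA5 had -2.82 ± 0.14 for het1, -2.23 ± 0.14 for het2 and -2.73 ± 0.14 for homo. HOXA5 passed for every line (adjusted p = 1.42e-16, 1.21e-14 and 5.68e-17). For HOXA4 it was -2.33 ± 0.38 for het1, -1.75 ± 0.40 for het2 and -2.27 ± 0.39 for homo. HOXA4 passed the test for each line (adjusted p = 9.67e-06, 0.00049 and 1.11e-05). HOXA3 had -1.83 ± 0.13 for het1, -1.80 ± 0.13 for het2 and -2.37 ± 0.14 for homo. HOXA3 was called for all 3 lines (adjusted p = 2.84e-12, 2.21e-12 and 3.56e-15). HOXA6 followed with -1.92 ± 0.28 for het1, -1.88 ± 0.28 for het2 and -2.29 ± 0.28 for homo. For HOXA6 each line passed the test (adjusted p = 1.12e-06, 1.38e-06 and 3.78e-08). In the HOXA cluster 7 of 11 members were negative in each line. HOXB was positive, with 2 of 9 members for het1, 9 for het2 and 7 for homo and none negative. HOXB8 reached 1.11 ± 0.13 for het1, 2.50 ± 0.14 for het2 and 3.58 ± 0.14 for homo. HOXB8 passed for every line (adjusted p = 2.29e-08, 7.7e-16 and 8.74e-20). HOXB9 had 0.65 ± 0.12 for het1, 1.43 ± 0.13 for het2 and 1.29 ± 0.13 for homo. HOXB9 passed the test for each line (adjusted p = 7.68e-05, 6.96e-11 and 4.77e-10). HOXB6 was at 0.15 ± 0.13 for het1, 1.41 ± 0.13 for het2 and 1.88 ± 0.14 for homo. HOXB6 was called for het2 and homo (adjusted p = 2.55e-10 and 5.75e-13) and not for het1 (0.386). HOXB5 was at 0.22 ± 0.17 for het1, 1.35 ± 0.18 for het2 and 1.60 ± 0.18 for homo. HOXB5 passed for het2 and homo (adjusted p = 1.38e-07 and 6.76e-09) and not for het1 (0.343). Outside these clusters HOXD13 had 2.28 ± 0.59 for het1, 1.25 ± 0.60 for het2 and 2.78 ± 0.58 for homo. HOXD13 was called for het1 and homo (adjusted p = 0.00216 and 0.000148) and not for het2 (0.0888). HOXC8 was positive for het1 (0.97 ± 0.14) and homo (0.35 ± 0.14).

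The het1 differences were then compared in the second set of tumours, in libraries not used above. In tumours under SAHA 27 of 36 members were higher and 2 lower in het1 than in WT, where 58.9% of all genes were called (29.9% higher and 29% lower). Under DMSO 22 were higher and 2 lower, where 54% of all genes were called (27.3% higher and 26.8% lower). Of the 22 members higher in het1 at day 30, 19 (86.4%) were also higher under DMSO, where they made up 86.4% of the members called higher. Over all genes called higher, these shares were 77.8% of those at day 30 and 76.2% of those under DMSO. HOXA2, HOXD9 and HOXD10 were called at day 30 and not under DMSO, and HOXB13, HOXC11 and HOXD1 the reverse. Under DMSO the rises of HOXA6, HOXB13 and HOXD4 and the fall of HOXB7, and under SAHA the rises of HOXA7 and HOXB2, were lost when any of 1 to 7 single libraries was left out (adjusted p = 0.051 to 0.162). HOXA13 was lower in all 3 sets.

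HOXB8 measured 36.6, 40.6, 39.2 and 43.4 CPM in het1 tumours under SAHA and 39.3, 41.9, 42.6 and 39.3 in het1 tumours under DMSO, against 7.85, 9.06, 6.22 and 6.95 in WT tumours under SAHA and 7.31, 6.08, 8.63 and 6.97 in WT tumours under DMSO. Every het1 tumour exceeded every WT tumour, with log2FC 2.41 ± 0.11 under SAHA and 2.49 ± 0.11 under DMSO (adjusted p = 8.67e-13 and 6.32e-13). HOXB9 gave 38.1, 40.5, 37.8 and 41.1 CPM in het1 tumours under SAHA and 36.2, 41.2, 44.6 and 34.6 in het1 tumours under DMSO, against 9.87, 9.41, 9.92 and 10.1 in WT tumours under SAHA and 8.07, 8.63, 8.58 and 8.65 in WT tumours under DMSO, at log2FC 2.00 ± 0.07 under SAHA and 2.21 ± 0.07 under DMSO. HOXC8 gave 11.4, 10.6, 12.0 and 12.1 CPM in het1 tumours under SAHA and 12.7, 11.8, 12.6 and 11.3 in het1 tumours under DMSO, against 2.32, 1.77, 2.51 and 2.32 in WT tumours under SAHA and 1.69, 2.39, 2.46 and 3.67 in WT tumours under DMSO, at 2.37 ± 0.16 and 2.25 ± 0.16 under SAHA and DMSO. None of these 3 genes had overlapping genotypes. HOXD13 was measured at 1.21, 0.944, 1.00 and 0.854 CPM in het1 tumours under SAHA and 0.753, 0.547, 0.688 and 0.644 in het1 tumours under DMSO, against 0.0273, 0, 0.0277 and 0 in WT tumours under SAHA and 0.0273, 0.0589, 0.0731 and 0 in WT tumours under DMSO, from 304 and 193 counts in het1 under SAHA and DMSO against 4 and 12 in WT. Its log2FC was 6.01 ± 0.51 under SAHA and 3.93 ± 0.44 under DMSO. HOXA13 was lower in het1, at 7.82, 8.03, 7.76 and 6.53 CPM in het1 tumours under SAHA and 11.1, 10.9, 9.20 and 11.3 in het1 tumours under DMSO, against 21.1, 23.4, 16.8 and 20.8 in WT tumours under SAHA and 15.4, 21.8, 21.1 and 22.9 in WT tumours under DMSO, with log2FC -1.44 ± 0.12 under SAHA and -0.93 ± 0.12 under DMSO.

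The effect of SAHA itself on the HOX genes was small. In WT tumours 0 of 36 members were called by edgeR, as were 0% of all genes. An unadjusted p under 0.05 was found for 3 members and 1911 genes, and DESeq2 called 0 members and 155 genes. In het1 tumours 1 member rose and 1 fell, where 16.8% of all genes were called (7.68% higher and 9.15% lower). HOXA13 stood at 7.82, 8.03, 7.76 and 6.53 CPM in het1 tumours under SAHA and 11.1, 10.9, 9.20 and 11.3 under DMSO, without overlap (log2FC -0.50 ± 0.12, adjusted p = 0.00798). The HOXA13 call was lost with the replicate block (log2FC -0.39, adjusted p = 0.173). HOXD11 stood at 1.61, 1.40, 1.57 and 1.36 CPM under SAHA and 0.864, 0.684, 0.993 and 0.822 under DMSO, also without overlap (log2FC 0.82 ± 0.27, adjusted p = 0.0406), but lost its call when any of the 8 het1 libraries was left out (adjusted p = 0.0506 to 0.112). Fibroblast markers summed to 173.6 to 252.9 CPM in het1 tumours under SAHA and 124.4 to 144.0 under DMSO. With host markers as a covariate HOXD11 had a log2FC of 0.54 (adjusted p = 0.146). The difference in the SAHA effect between het1 and WT was called for 0 members by edgeR, where 4.72% of all genes were called (2.01% higher and 2.71% lower). DESeq2 called 2, and 5 had an unadjusted p under 0.05. The small counts moved with the setting. In het1 tumours DESeq2 called 4 members and a fit of only the groups compared called 6. Without WT SAHA replicate 6 there were 4 calls in het1 and 3 for the difference, without het1 DMSO replicate 2 there was 1 for the difference, and without het1 DMSO replicate 3, 4 or 5 or het1 SAHA replicate 1, 3 or 6 there was 1 call in het1.

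One WT tumour under SAHA, replicate 6, stood apart, with a fibroblast sum of 531.4 CPM against 186.5 to 316.2 in the others of its group, 5.14 CPM of HOXD10 and 2.31 CPM of HOXC11. Without it HOXA3 was no longer called between het1 and WT under SAHA (log2FC -0.175, adjusted p = 0.0684).

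**Figure D4:**
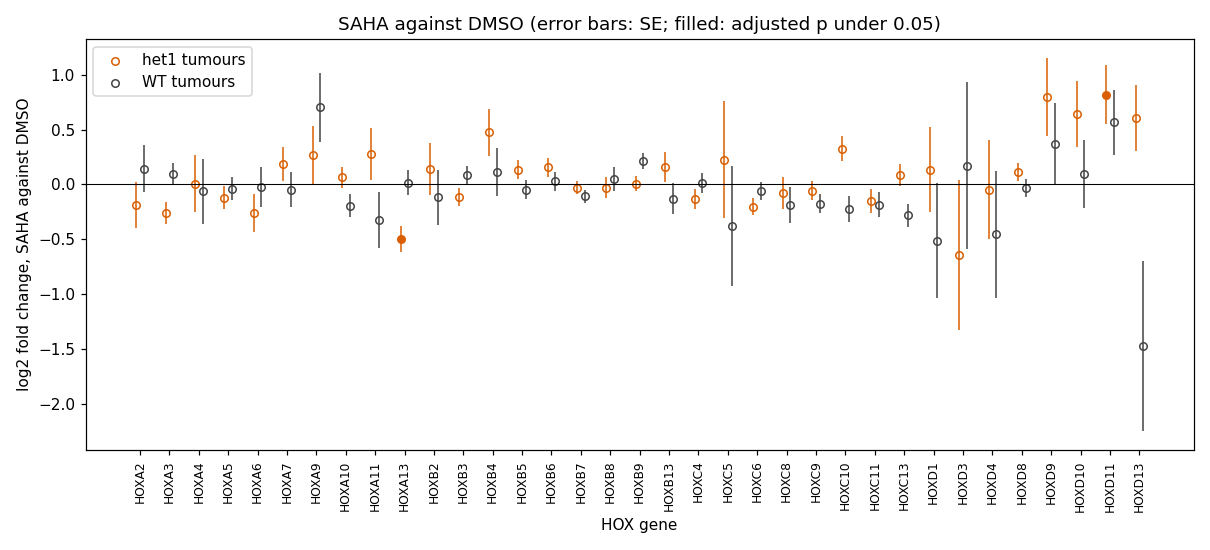
Log2 fold change of SAHA against DMSO for tested members in het1 tumours and in WT tumours, with SE bars and filled points for adjusted p under 0.05. HOXA13 (-0.50) and HOXD11 (0.82) in het1 are the only filled points.

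Some non-coding RNAs within the clusters also differed from WT. Of those tested, 5 of 16 rose and 1 fell in het1 tumours, 0 and 3 in het2 and 3 and 4 in homo, and 9 of 14 rose and 0 fell in het1 cultures, 5 and 3 in het2 and 5 and 2 in homo. Called in het1, het2 and homo tumours were 37.5%, 18.8% and 43.8%, below the 51.5%, 49.2% and 54.8% of all genes. In the cultures 64.3%, 57.1% and 50% were called, beside 62.8%, 68.5% and 70.5% of all genes. The non-coding median log2FC was 0.38, -0.32 and 0.05 in het1, het2 and homo tumours, and 0.69, 0.40 and 0.49 in the cultures. HOTAIRM1, from the 3′ side of HOXA, averaged 6.72 ± 0.684 CPM in het1, 7.99 ± 0.565 in het2 and 6.46 ± 0.540 in homo cultures, against 1.23 ± 0.0915 in WT cultures. Its log2FC there was 2.44 ± 0.11 in het1, 2.69 ± 0.11 in het2 and 2.38 ± 0.12 in homo cells. HOTAIRM1 passed the test in each line (adjusted p = 1.22e-18, 3.58e-20 and 2.08e-18). HOTTIP, beyond HOXA13, averaged 0.322 ± 0.0825 CPM in het1, 0.462 ± 0.104 in het2 and 0.116 ± 0.0524 in homo tumours, against 1.00 ± 0.246 in WT tumours. It fell in each edited line, at log2FC -1.63 ± 0.27 in het1, -1.11 ± 0.26 in het2 and -3.12 ± 0.31 in homo tumours. HOTTIP was called in all 3 lines (adjusted p = 2.89e-05, 0.00106 and 2.87e-08). HOTAIR, from the HOXC cluster, rose in het1 tumours (1.42 ± 0.23), and HOXB-AS3 fell in het2 and homo cultures (-1.41 ± 0.11 and -1.48 ± 0.11). HAGLR, beside HOXD1, fell in het2 cultures (-2.55 ± 0.13).

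Genes outside the clusters differed as well. Of 20 flanking genes tested in tumours, 12 were higher and 3 lower in het1, 8 and 5 in het2 and 8 and 8 in homo, and of 19 tested in culture, 7 and 9, 6 and 9, and 5 and 11. Called in tumours were 75%, 65% and 80%, beside 51.5%, 49.2% and 54.8% of all genes. In culture 84.2%, 78.9% and 84.2% were called, beside 62.8%, 68.5% and 70.5% of all genes. The flanking median log2FC was 0.22, 0.12 and 0.04 in het1, het2 and homo tumours, and -0.08, -0.05 and -0.17 in the cultures. SKAP2 and SNX10 lie beyond the 3′ side of HOXA. SKAP2 averaged 321 ± 12.3 CPM in het1, 290.3 ± 4.61 in het2 and 214 ± 9.37 in homo cultures, against 81.4 ± 2.39 in WT cultures. Its log2FC was 1.98 ± 0.03 in het1, 1.83 ± 0.03 in het2 and 1.40 ± 0.03 in homo cells. For SKAP2 each line passed the test (adjusted p = 3.6e-31, 1.57e-30 and 2.18e-27). SNX10 rose too in culture, at 2.14 ± 0.06 in het1, 1.81 ± 0.06 in het2 and 2.30 ± 0.06 in homo cells. SNX10 passed in every line (adjusted p = 9.96e-25, 9.02e-23 and 8.16e-26). In tumours SNX10 gave 1.32 ± 0.08 in het1, 0.79 ± 0.08 in het2 and 0.99 ± 0.08 in homo tumours. SNX10 passed the test in each line (adjusted p = 1.33e-11, 3.89e-08 and 9.39e-10). SKAP2 in tumours gave 0.60 ± 0.05 in het1, 0.19 ± 0.05 in het2 and 0.54 ± 0.05 in homo tumours. SKAP2 was called in all 3 lines (adjusted p = 3.37e-09, 0.00344 and 1.42e-08). On the 5′ side, HIBADH, 325.3 kb from HOXA13, was lower in every edited line, in tumours at -0.31 ± 0.07 in het1, -0.61 ± 0.07 in het2 and -0.64 ± 0.07 in homo tumours. For HIBADH each line passed the test (adjusted p = 0.000563, 1.59e-07 and 5.67e-08). TTLL6, 33.1 kb beyond HOXB13, was higher in edited tumours, at 1.65 ± 0.19 in het1, 1.37 ± 0.19 in het2 and 0.52 ± 0.19 in homo tumours. TTLL6 passed in every line (adjusted p = 2.63e-06, 2.04e-05 and 0.0297). In edited cultures TTLL6 was lower, at -1.10 ± 0.12 in het1, -4.08 ± 0.16 in het2 and -2.87 ± 0.14 in homo cells. TTLL6 passed the test in each line (adjusted p = 1.75e-09, 6.93e-21 and 5.28e-18). Its direction in het2 and homo was thus that of HOXB8, whereas in het1 cultures TTLL6 was lower and HOXB8 higher than in WT.

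Among the TALE cofactors, 6 of 11 rose and 1 fell in het1 tumours, 2 and 0 in het2 and 5 and 2 in homo, and 7 and 1, 7 and 4, and 7 and 2 in culture. The shares called in tumours were 63.6%, 18.2% and 63.6%, beside 51.5%, 49.2% and 54.8% of all genes. Those in culture were 72.7%, 100% and 81.8%, beside 62.8%, 68.5% and 70.5% of all genes. The cofactor median log2FC was 0.27, 0.06 and 0.25 in het1, het2 and homo tumours, and 0.37, 0.27 and 0.25 in the cultures. MEIS3 rose throughout, at 1.25 ± 0.07 in het1, 0.59 ± 0.06 in het2 and 0.78 ± 0.07 in homo tumours (adjusted p = 2.3e-12, 1.84e-07 and 2.3e-09). Its culture values were 0.85 ± 0.05 in het1, 0.91 ± 0.04 in het2 and 0.69 ± 0.05 in homo cells (adjusted p = 3.2e-17, 3.13e-18 and 6.95e-15). PBX2 rose in culture, at log2FC 0.75 ± 0.04 in het1, 0.56 ± 0.04 in het2 and 1.00 ± 0.04 in homo cells. PBX2 was called in all 3 lines (adjusted p = 2.53e-17, 3.15e-14 and 5.72e-21). Of the PRC1 subunits, 13 of 20 rose and 5 fell in het1 tumours, 8 and 7 in het2 and 8 and 8 in homo, and 8 and 6, 8 and 7, and 10 and 7 in culture. Called were 90%, 75% and 80% in tumours and 70%, 75% and 85% in culture, against the same all-gene shares. The PRC1 median log2FC was 0.21, 0.06 and 0.02 in het1, het2 and homo tumours, and 0.01, 0.03 and 0.15 in the cultures. CBX2, the chromodomain reader of the silencing mark, fell in every line, at -2.04 ± 0.11 in het1, -0.74 ± 0.11 in het2 and -1.56 ± 0.11 in homo tumours (adjusted p = 2.32e-11, 1.3e-05 and 6.22e-10). In culture CBX2 gave -1.31 ± 0.06 in het1, -1.54 ± 0.06 in het2 and -1.20 ± 0.06 in homo cells (adjusted p = 8.99e-20, 8.87e-22 and 7.25e-19). The ubiquitin ligase RNF2 rose, at 0.88 ± 0.05 in het1, 0.62 ± 0.05 in het2 and 0.72 ± 0.05 in homo tumours. For RNF2 each line passed the test (adjusted p = 9.28e-12, 3.02e-09 and 1.75e-10). In culture RNF2 gave 0.52 ± 0.04 in het1, 0.60 ± 0.04 in het2 and 0.61 ± 0.04 in homo cells. RNF2 passed in every line (adjusted p = 5.35e-13, 9.72e-15 and 7.41e-15).

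Of the PRC2 subunits, 6 of 12 were higher and 2 lower in het1 tumours, 3 and 3 in het2 and 4 and 2 in homo, and 5 and 5, 3 and 8, and 4 and 5 in culture. The PRC2 shares called were 66.7%, 50% and 50% in tumours, beside 51.5%, 49.2% and 54.8% of all genes. Those in culture were 83.3%, 91.7% and 75%, beside 62.8%, 68.5% and 70.5% of all genes. The PRC2 median log2FC was 0.18, 0.02 and 0.03 in het1, het2 and homo tumours, and -0.03, -0.14 and -0.01 in the cultures. The methyltransferase EZH2 was lower in all 3 edited cultures, at -0.23 ± 0.04 in het1, -0.89 ± 0.04 in het2 and -0.52 ± 0.04 in homo cells (adjusted p = 7.19e-06, 5.74e-19 and 4.55e-13), and in tumours gave 0.34 ± 0.07 in het1, -0.61 ± 0.07 in het2 and -0.00069 ± 0.07 in homo tumours. EZH2 passed in het1 and het2 (adjusted p = 0.000626 and 9.67e-07) and not in homo (0.995). EPOP rose in all lines, in tumours at 0.65 ± 0.11 in het1, 0.35 ± 0.11 in het2 and 0.95 ± 0.11 in homo tumours. EPOP was called in all 3 lines (adjusted p = 3.34e-05, 0.0109 and 1.82e-07). Of the MLL complex genes and partners, 2 of 17 rose and 6 fell in het1 tumours, 4 and 5 in het2 and 5 and 0 in homo, and 8 and 7, 2 and 10, and 9 and 5 in culture. Called were 47.1%, 52.9% and 29.4% in tumours and 88.2%, 70.6% and 82.4% in culture, against the same all-gene shares. The MLL median log2FC was -0.05, -0.002 and -0.05 in het1, het2 and homo tumours, and 0.02, -0.16 and 0.11 in the cultures. KDM6B, which removes the Polycomb mark, rose in culture at 1.19 ± 0.04 in het1, 1.16 ± 0.04 in het2 and 1.62 ± 0.04 in homo cells. For KDM6B each line passed the test (adjusted p = 1.22e-21, 1.41e-21 and 1.07e-25).

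Retinoic acid pathway genes were mixed, with 7 of 15 higher and 3 lower in het1 tumours, 8 and 2 in het2 and 7 and 4 in homo, and 8 and 6, 6 and 4, and 7 and 6 of 16 in culture. Called in tumours were 66.7%, 66.7% and 73.3%, beside 51.5%, 49.2% and 54.8% of all genes. The culture shares were 87.5%, 62.5% and 81.2%, beside 62.8%, 68.5% and 70.5% of all genes. The retinoic acid median log2FC was 0.15, 0.30 and 0.14 in het1, het2 and homo tumours, and -0.004, 0.03 and 0.06 in the cultures. The receptor RARG rose, at 1.87 ± 0.08 in het1, 1.10 ± 0.08 in het2 and 1.71 ± 0.08 in homo tumours. RARG passed in every line (adjusted p = 7.08e-14, 2.79e-10 and 1.56e-13). In culture RARG gave 0.98 ± 0.04 in het1, 0.62 ± 0.04 in het2 and 0.76 ± 0.04 in homo cells. RARG passed the test in each line (adjusted p = 2.18e-19, 2.66e-14 and 1.67e-16). RARB, a classical retinoic acid target, fell in tumours at -2.09 ± 0.14 in het1, -1.25 ± 0.13 in het2 and -1.48 ± 0.14 in homo tumours. RARB was called in all 3 lines (adjusted p = 7.05e-10, 4.85e-07 and 4.24e-08). The retinol dehydrogenase RDH10 rose there, at 1.71 ± 0.09 in het1, 1.94 ± 0.09 in het2 and 1.57 ± 0.09 in homo tumours. For RDH10 each line passed the test (adjusted p = 1.65e-11, 6.59e-12 and 4.14e-11). Of the CDX, ParaHox and EVX genes only 3 of 8 could be tested in tumours. EVX1, next to HOXA13, fell in homo tumours (-2.35 ± 0.48, adjusted p = 0.000319).

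Members of 1 cluster differed in how alike their profiles were. By Pearson's r of mean log2 CPM over the 12 groups, which share libraries and culture conditions, the closest pairs were HOXD9 with HOXD10 (0.981), HOXD9 with HOXD11 (0.98) and HOXD10 with HOXD11 (0.973). They were followed by HOXB8 with HOXB9 (0.943), HOXB3 with HOXB9 (0.93), HOXA3 with HOXA5 (0.92) and HOXA9 with HOXA10 (0.911). All of these pairs but HOXB3 with HOXB9 are neighbours or have 1 member between them, and the values are a description with no test. HOXD10 and HOXD11 share part of their exons, so their counts may not be independent.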

How the data were processed

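The authors deposited 3 tables of gene counts, 1 each for cultures, day 30 tumours and treated tumours. Per the labels' protocols, total RNA came from QIAGEN RNeasy Plus Mini columns and KAPA stranded mRNA-seq libraries were prepared. HISAT2 and HTSeq on hg38 are named in the submitters' processing notes, without versions. No source used here states the annotation release, the strand setting or how mouse reads were treated.

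All 58721 identifiers matched GENCODE release 29. Each table was fitted whole with edgeR 4.0.16 in R 4.3.3 (TMM, filterByExpr, robust quasi-likelihood tests), which tested 21704 genes in cells, 22533 in day 30 tumours, 22586 in treated tumours and 24227 in a joint fit of cells and day 30 tumours that was added after the data were seen. P-values were Benjamini-Hochberg adjusted over all genes, and adjusted p under 0.05 was a call. SE is the absolute log2FC divided by the square root of F. CPM uses TMM-scaled library sizes within a table. Replicates were compared first: of 60 pairs within groups 0 were identical. The fits were also run on simulated data, for the first comparison of each table only. Far fewer genes were changed there than were called in these data, so no error rate is taken from that run. A few genes that enter the counts are not reported singly here.

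For each comparison up to 4 called members with the largest rise and 4 with the largest fall, among those with a mean of at least 0.5 CPM in a compared group, are described in full, and for other gene lists up to 3 members with the smallest p. Members and lists were chosen with earlier results of these data known. Alternatives were DESeq2 1.42.0 with its size factors, no filter on low counts, a mean filter of 1 CPM, a log2 threshold of 1, a replicate block, only the groups compared, host markers as a covariate, and leaving out each library. The floor of 3 counts covers counting error alone, as PCR copies of a molecule were not told apart.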

Additional observations from a re-analysis of the deposited data

Results flagged for a closer look

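Members in groups of 4 libraries were examined for a library far from the rest of its group, by its gap to the nearest library as a share of the range. Of 222 member groups examined 8 passed, where chance alone gives about 1 in 20, so single cases carry little weight. HOXA10 was 5.90 CPM in het1 day 30 tumour replicate 1, with the others at 6.86 to 6.93, and 2.90 CPM in het2 day 30 tumour replicate 3, with the others at 2.30 to 2.34. HOXA13 was 26.0 CPM in WT day 30 tumour replicate 0, with the others at 21.7 to 22.2, and 9.20 CPM in het1 DMSO tumour replicate 4, with the others at 10.9 to 11.3. HOXA2 was 1.32 CPM in WT DMSO tumour replicate 7, against 0.825 to 0.900 in its group. HOXB8 was 34.1 CPM in homo day 30 tumour replicate 1, against 36.1 to 36.4 in its group. HOXB9 was 8.07 CPM in WT DMSO tumour replicate 2, against 8.58 to 8.65, and HOXC11 was 2.31 CPM in WT SAHA tumour replicate 6, against 3.23 to 3.41. That last library also held the highest fibroblast marker sum of its group, and the part of this in the HOXC11 value was not tested.

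Differences from WT that were not the same in tumours and in culture form the other group, each by the test of the difference itself (log2FC in tumours minus that in cells). For het1 they were positive for HOXD13 (2.28), HOXD9 (1.93), HOXB8 (1.11) and HOXC8 (0.972), and negative for HOXA5 (-2.82), HOXA4 (-2.33), HOXA6 (-1.92) and HOXA3 (-1.83). For het2 they were positive for HOXB8 (2.5), HOXB13 (2.17), HOXB2 (1.85) and HOXB9 (1.43), and negative for HOXA5 (-2.23), HOXA6 (-1.88), HOXA3 (-1.8) and HOXA4 (-1.75). For homo they were positive for HOXB8 (3.58), HOXD13 (2.78), HOXB6 (1.88) and HOXB5 (1.6), and negative for HOXA5 (-2.73), HOXA3 (-2.37), HOXA6 (-2.29) and HOXA4 (-2.27). HOXA3 to HOXA6 were the 4 most negative in each line. The HOXD9 value for het1 did not pass without WT culture replicate 1 or 3 or het1 culture replicate 2 or 3 (adjusted p = 0.0505 to 0.147).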

How the results depend on the processing

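Of 565 alternative counts of called members 533 stayed within 1.5 times the reported count, and of 470 member calls over all comparisons 384 were kept under every alternative other than a fold threshold and 86 were lost under at least 1. HOXB7 in het2 and homo against WT tumours turned from lower to higher, not called, with host markers as a covariate (0.11 and 0.05). Requiring an absolute log2FC of at least 1 left 14 members called in het1, 6 in het2 and 12 in homo day 30 tumours, and 15, 15 and 16 in the cultures of those lines. With that threshold homo against the het mean had 4 in tumours and 6 in culture, het1 against het2 had 13 and 18, het1 against WT had 17 under SAHA and 12 under DMSO, SAHA in het1 had 0, tumours against cells had 11 in het1, 16 in homo and 12 in WT, and the het1 difference between tumours and cells had 8. The share of all genes passing that threshold was not worked out, so these counts cannot be set against other genes. Host markers as a covariate left 11 members called in het2 against WT tumours (22 without), and 7547 of all genes (11084 without). The cause was not tested. For SAHA in het1, with 2 calls, DESeq2 gave 4, a replicate block 1 and only the groups compared 6, and leaving out each library gave 1 to 4. The 1 call with the replicate block was neither HOXA13 nor HOXD11 (adjusted p = 0.173 and 0.504). For the SAHA difference between genotypes, with 0 calls, DESeq2 gave 2, a mean filter of 1 CPM gave 1 and leaving out each library gave 0 to 3. Same-numbered libraries did not vary together (median residual correlation -0.02 among treated tumours and -0.01 among day 30 tumours and among cultures), so they were treated as unpaired. With the replicate block the counts were 26, 20 and 24 in het1, het2 and homo tumours and 25, 28 and 26 in the cultures. Depth limits the members below 0.5 CPM, mainly HOXD1, HOXD3, HOXD4, HOXC5 and, in culture, HOXD9 and HOXD11, where a few counts set the value.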

Other observations

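A pair of genes from the retinoic acid list, singled out after their values were seen, separated edited from WT tumours widely. ALDH1A2, an enzyme that makes retinoic acid, averaged 11.6 ± 1.94 CPM in het1, 1.38 ± 0.238 in het2 and 10.9 ± 5.54 in homo day 30 tumours, against 0.202 ± 0.160 in WT tumours (SD, n = 4 each), with edgeR log2FC 5.86 ± 0.46 in het1, 2.78 ± 0.49 in het2 and 5.77 ± 0.46 in homo tumours. ALDH1A2 passed in every line (adjusted p = 5.76e-08, 0.000253 and 5.85e-08). CRABP2, which carries retinoic acid to its nuclear receptors, averaged 19.5 ± 1.80 CPM in het1, 6.57 ± 2.45 in het2 and 2.63 ± 1.14 in homo tumours, against 0.779 ± 0.180 in WT tumours, with log2FC 4.64 ± 0.33 in het1, 3.07 ± 0.32 in het2 and 1.75 ± 0.33 in homo tumours. CRABP2 passed the test in each line (adjusted p = 1.24e-08, 1.25e-06 and 0.000341). In the separate tumours under DMSO het1 differed from WT by 6.20 ± 0.20 for ALDH1A2 and 4.88 ± 0.13 for CRABP2. In culture ALDH1A2 was at or below 0.138 ± 0.0998 CPM on average in every line, the value of WT cells. PKNOX2, a TALE cofactor, had 0 counts in the 3 WT cultures and averaged 0.0496 ± 0.0222 CPM in het1, 0.154 ± 0.0550 in het2 and 0.383 ± 0.0161 in homo cultures.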
